A study of Mus musculus with 4 samples.

Results

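The genes described here are 10 brakes on growth factor signalling: the dual-specificity phosphatase genes Dusp1, Dusp4, Dusp5, Dusp6 and Dusp10, the Sprouty genes Spry1, Spry2 and Spry4, and the Sprouty-related genes Spred1 and Spred2. Their peaks were taken from 2 deposited lists of TEAD1 ChIP-seq peaks, as every peak whose summit lay in the annotated span of a member or within 50 kb of either end. By this rule 35 of 21285 peaks in list 1 and 28 of 21218 in list 2 belonged to them. TEAD1 is the DNA-binding partner of YAP and TAZ, the coactivators that the Hippo pathway restrains, and the study mapped the elements it occupies in fibroblasts from the hearts of newborn mice. Cells overexpressing TEAD1 (OE-TEAD1) gave 1 ChIP and 1 input library, and negative control cells (OE-NC) gave 1 ChIP and 1 input library. All 4 groups are cardiac fibroblasts, and none had a replicate. Nothing in the sources used here gives the construct's promoter, the number of animals or the antibody. The labels tie neither list to a condition, so no effect of overexpression is given. Peaks lay within 50 kb of 7 of 8 fibroblast markers in list 1 and in list 2. The same held for 5 and 2 of 5 cardiomyocyte markers, so peak positions do not check the cell type, and a nearby peak is not a measure of a gene's expression.

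Growth factor receptors pass their signal through Ras, Raf and MEK to the kinase ERK, which then switches on genes that restrain it. Dual-specificity phosphatases remove the activating phosphates from ERK and from the related kinases p38 and JNK. Sprouty proteins act further up, between the receptor and Raf, and Spred proteins bring the Ras inactivator neurofibromin to the membrane. In fibroblasts this loop limits how long a growth factor can drive cell division.

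The sequences around the transcription starts are shown first, because the peaks did not lie there. RefSeq promoter windows of the GRCm38.p6 build, 250 bases before to 50 after the start, were at hand for 8 of the 10 members, all but Dusp4 and Spry4. No member peak of either list overlapped any of them. No summit of either list lay within 1 kb of the start of one of these members. Over the whole lists, 1129 of 21285 summits in list 1 and 1072 of 21218 in list 2 were within 1 kb of either end of a coding span. That count takes in 3′ ends, and the count at starts alone is not given here. The windows were searched on both strands for the letters GGAATG of the TEAD motif, TGANTCA of the AP-1 motif and CCGGAA of the ETS motif. No overlap between motifs occurred in them. The TEAD letters were found in 1 of 8 member windows, against 13.3% of 17274 windows of protein-coding genes. That window belonged to Spry1, a member without a peak, where the match began 208 bases before the start. The AP-1 letters were in 0 of 8 (7.14% of all windows) and the ETS letters in 1 of 8 (19.3%), in the window of Spry2. The windows of Dusp1, whose start was nearest to a peak, of Dusp10, which had the strongest peak, and of Spry1 follow, 5′ to 3′, with a match in capitals.
Dusp1 promoter, chr17:26508423-26508722, minus strand: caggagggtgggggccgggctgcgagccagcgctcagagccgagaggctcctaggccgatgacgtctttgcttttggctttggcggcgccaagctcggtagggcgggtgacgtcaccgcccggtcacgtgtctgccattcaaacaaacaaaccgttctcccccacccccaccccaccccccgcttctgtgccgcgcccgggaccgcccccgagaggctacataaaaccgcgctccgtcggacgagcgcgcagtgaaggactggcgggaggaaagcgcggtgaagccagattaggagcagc
Dusp10 promoter, chr1:184034131-184034430, plus strand: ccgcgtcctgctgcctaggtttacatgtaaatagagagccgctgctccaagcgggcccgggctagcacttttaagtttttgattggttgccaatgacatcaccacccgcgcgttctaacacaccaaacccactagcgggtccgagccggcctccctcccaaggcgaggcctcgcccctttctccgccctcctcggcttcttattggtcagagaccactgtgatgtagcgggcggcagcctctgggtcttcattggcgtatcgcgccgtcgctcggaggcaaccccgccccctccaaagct
Spry1 promoter, chr3:37639697-37639996, plus strand: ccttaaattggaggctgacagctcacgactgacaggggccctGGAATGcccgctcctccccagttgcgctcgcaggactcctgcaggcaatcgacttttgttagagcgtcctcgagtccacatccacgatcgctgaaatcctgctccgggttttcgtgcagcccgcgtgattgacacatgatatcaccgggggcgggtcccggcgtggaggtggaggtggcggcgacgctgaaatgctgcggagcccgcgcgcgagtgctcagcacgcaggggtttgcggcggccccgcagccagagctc

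Peaks were found at 7 of the 10 members in each list, the same 7 in both: Dusp1, Dusp5, Dusp6, Dusp10, Spry2, Spred1 and Spred2. By the same rule 58.2% of 21631 protein-coding genes had a peak in list 1 and 59.0% in list 2, so a share of 7 in 10 is near the background. The number of peaks stood further from it. At least 5 peaks were found at 5 members in list 1 (Dusp1, Dusp5, Dusp6, Dusp10 and Spred2), where 9.37% of genes had as many. In list 2 they were found at 3 members (Dusp1, Dusp6 and Dusp10), against 8.88% of genes. These shares were not split by span, and Dusp10 and Spred2 have long spans. High numbers were not particular to the members. Of the related genes described below, Dusp14 had 9 peaks in each list, Errfi1 8 in each, Elk3 7 in each and Ets1 7 and 9. Most of those related genes had fewer than 5. Of the 4 members with spans under 5 kb 3 had a peak in each list, against 38.2% and 39.2% of protein-coding genes that short. Of the 3 with spans of 5 to 20 kb 1 had a peak in each list, against 58.6% and 59.0%. All 3 with spans over 20 kb had one in each list, against 67.7% and 68.5%. The member windows covered 1.259 Mb and held 27.8 peaks per Mb in list 1 and 22.2 in list 2, against 11.0 and 10.8 per Mb over the windows of all protein-coding genes. The phosphatase windows held 25 of the 35 peaks of list 1 and 24 of the 28 of list 2, or 43.6 and 41.9 per Mb. The Spred windows had 24.9 per Mb in list 1 and 8.31 in list 2, and the Sprouty windows 3.08 in each.

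Fold over input is the authors' ratio of ChIP signal at the summit to the local background, and the 95% Poisson interval given with it comes from the ChIP fragments counted there. Member peaks had a median fold of 6.70 in list 1 and 6.19 in list 2, close to the medians of all peaks (6.24 and 6.83). Folds ran between 3.30 and 29.7 in list 1 and between 3.29 and 63.7 in list 2. Of the member peaks 9 of 35 in list 1 (22.9% of all peaks) and 5 of 28 in list 2 (28.1%) were at least 10-fold over input. All of these but 1 lay at phosphatase genes, the exception being a Spred2 peak of list 1. By place, 13 of 35 summits lay upstream of the start, 10 in the span and 12 beyond the 3′ end in list 1. In list 2 these were 12, 6 and 10 of 28. Each window adds 50 kb on either side of a span of 2.88 to 99.6 kb, so most of the searched sequence was outside the genes. The same split over all protein-coding genes is not given here, so it is not a result about the members. The member was the nearest protein-coding gene for 31 of 35 summits in list 1 and 25 of 28 in list 2. The 4 and 3 exceptions lay nearer to Ergic1, 1700056E22Rik, Fam98b or Actr2. These counts follow largely from the surroundings. No other protein-coding gene lay within 50 kb of Dusp1, Dusp5, Dusp6, Spry2 or Spred1, and only 1 within 50 kb of Dusp10 and of Spred2. The share over all protein-coding genes is not given here.

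**Figure D1:**
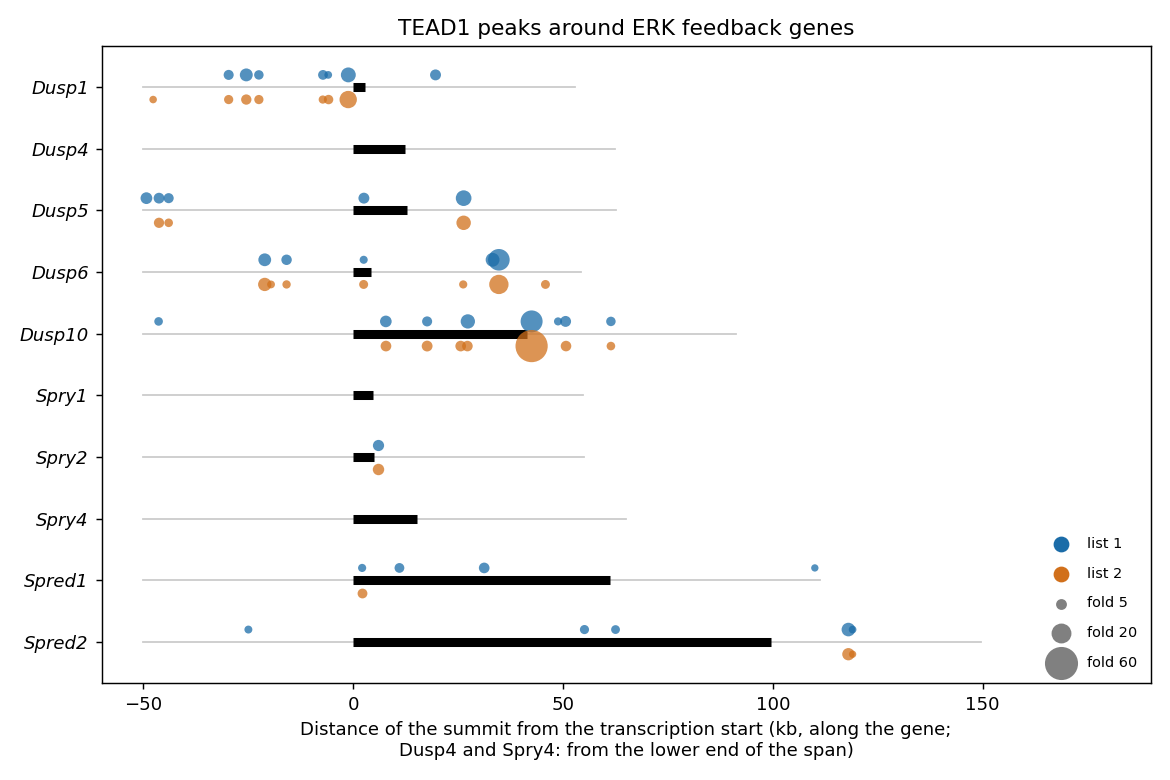
Position of every peak summit at the 10 members, in kb from the transcription start along the gene, with list 1 above and list 2 below each gene. Black bars are gene spans, grey lines the 50 kb on either side, and the area of a dot is proportional to fold over input. Dusp4 and Spry4, which have no peaks, are drawn along the chromosome from the lower end of their span. The largest dots are the Dusp10 site just beyond the 3′ end (29.7-fold in list 1 and 63.7-fold in list 2) and the Dusp6 site 34.7 kb from the start (28.6-fold and 22.9-fold).

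Dusp10 had the strongest site of all members. It encodes a phosphatase that prefers p38 and JNK over ERK. The peak lay 1.20 kb beyond the 3′ end in list 1, on chromosome 1 at 184076315 to 184077405, and 1.21 kb beyond it in list 2, at 184076092 to 184077397. In list 1 it held 121 fragments over a local background of 3.11, a fold of 29.7 (24.7 to 35.4). In list 2 it held 183 fragments over 1.89, a fold of 63.7 (54.8 to 73.6). It was peak 309 of list 1 by −log10 q and peak 129 of list 2, within the first 1.45% and 0.608%. As few as 3.01% of protein-coding genes in list 1 and 0.578% in list 2 had as high a fold in their window. Its log2 fold ratio of list 1 over list 2 was -1.10, with both more fragments and a lower background in list 2.

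Inside the Dusp10 span, which is 41.3 kb long, the lists shared 3 further sites. These lay 7.76, 17.6 and 27.3 kb from the start by the list 1 summits. The first was 8.31-fold over background in list 1 and 7.02-fold in list 2, and the second 6.2-fold and 7.19-fold. The site at 27.3 kb was 12.5-fold in list 1 (8.84 to 17.3), with 35 fragments over 1.87, and 6.88-fold in list 2 (4.74 to 9.67), with 31 fragments over 3.65. The fragment numbers at this site were close and the backgrounds were not. List 1 called it as a single peak of 1333 bp. List 2 called a narrower peak of 478 bp there and a separate one 25.6 kb from the start (6.99-fold, 23 fragments) that overlapped no list 1 peak. Beyond the 3′ end both lists had a site at 9.35 and 9.46 kb (7.34-fold and 6.86-fold) and one at 20.1 and 20.2 kb (5.51-fold and 4.54-fold). List 1 alone had peaks 46.4 kb upstream (4.55-fold, 13 fragments) and 7.55 kb past the 3′ end (4.04-fold, 10 fragments).

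Dusp6 encodes the cytoplasmic phosphatase that is specific for ERK and a widely used readout of ERK activity. Its strongest site lay 34.7 kb from the start, 30.4 kb beyond the 3′ end, on chromosome 10 at 99297602 to 99298355 in list 1 and 99297566 to 99298230 in list 2. It held 79 fragments with a fold of 28.6 in list 1 (22.7 to 35.6), and 87 fragments with a fold of 22.9 in list 2 (18.4 to 28.2). The intervals overlapped. As high a fold was found for 3.29% of protein-coding genes in list 1 and 8.09% in list 2. At 33.2 kb from the start list 1 had a further peak of 11.7-fold (8.21 to 16.2, 34 fragments) at 99296095 to 99296787. No list 2 peak overlapped that one, and among all list 1 peaks of at least 10-fold such a lack was found for 1.21%. In list 2 no member peak of that strength (0 of 5) stood alone, against 1.86% of all.

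Upstream of Dusp6 a wide region of signal had its summit 21.1 kb before the start. List 1 called it as 1 peak of 2737 bp, the widest at any member, with a fold of 10.1 (7.19 to 13.7). List 2 called a peak of 970 bp with a fold of 10.9 (7.83 to 14.8) and a second, weaker one 19.6 kb before the start (3.76-fold) within the same stretch. A site 15.9 kb before the start was 6.70-fold in list 1 and 4.28-fold in list 2, with 30 fragments over 3.63 and 22 over 4.38. The peak nearest to the start lay inside the gene at 2.48 and 2.47 kb and was weak in both lists (4.00-fold and 4.95-fold, 14 and 18 fragments). Peaks 26.2 kb (4.12-fold) and 45.8 kb (4.88-fold) from the start were in list 2 alone. Within 50 kb of Dusp6 lay 3 lncRNA genes and no other protein-coding gene, and Dusp6 was the nearest protein-coding gene of every one of these summits.

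Dusp1 is an immediate-early gene whose nuclear phosphatase acts on p38, JNK and ERK. It had the peak closest to a start, with its summit 1.18 kb upstream in list 1 and 1.21 kb upstream in list 2, on chromosome 17 at 26509379 to 26510129 and 26509396 to 26510132. The fold was 13.6 in list 1 (10.3 to 17.7), with 55 fragments over 3.11, and 18.5 in list 2 (13.9 to 24.1), with 52 fragments over 1.87. The fragment numbers were thus nearly equal, and the higher fold of list 2 came with the lower background. Further upstream there were 5 more shared sites, at 5.97, 7.22, 22.5, 25.5 and 29.7 kb by the list 1 summits. The one at 25.5 kb was the strongest of these, with 41 fragments and 10.2-fold in list 1 (7.40 to 13.8) and 48 fragments and 6.54-fold in list 2 (4.86 to 8.62). The other 4 had folds between 3.67 (at 5.97 kb) and 6.2 (at 29.7 kb) in list 1 and between 4.16 and 5.50 in list 2. A single list 1 peak lay downstream, 16.7 kb past the 3′ end and inside the lncRNA gene Gm34455 (7.34-fold). A single list 2 peak lay 47.7 kb upstream (3.49-fold, 9 fragments), 4.63 kb from Ergic1. Dusp1 spans 2.88 kb, and 4.07% of protein-coding genes in list 1 and 3.78% in list 2 had as many as its 7 peaks.

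Dusp5 encodes a nuclear phosphatase specific for ERK. Its strongest site lay 13.6 kb past the 3′ end in list 1 and 13.7 kb past it in list 2, on chromosome 19 at 53555301 to 53555787 and 53555262 to 53555708. The fold was 15.1 in list 1 (10.9 to 20.4) and 12.8 in list 2 (10 to 16.2). List 1 had 40 fragments there over a background of 1.72, and list 2 had 69 over 4.47, so both numbers were higher in list 2. Far upstream, 2 sites were shared: 46.3 kb before the start (7.13-fold in list 1 and 6.45-fold in list 2) and 44.0 kb before it (6.24-fold and 4.54-fold). List 1 alone had a peak inside the gene, 2.53 kb from the start (7.34-fold, 19 fragments), and one 49.3 kb upstream (8.47-fold, 23 fragments). Dusp5 therefore had no list 2 peak nearer than 13.7 kb.

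Dusp4, which encodes another nuclear phosphatase of this family, had no peak in either list. The nearest summit lay 53.5 kb from its span in list 1, just outside the limit, 7.71-fold (4.85 to 11.7) on 20 fragments. In list 2 the nearest lay 134 kb away, inside Tnks, with a fold of 5.58. Chromosome 8 as a whole held 1011 peaks in list 1 and 958 in list 2.

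Of the Sprouty genes Spry2 alone had a peak. Spry2, whose product also binds the ubiquitin ligase Cbl, spans 4.87 kb of chromosome 14, and no other annotated gene lay within 50 kb of it. The peak lay 1.07 kb past the 3′ end in list 1 and 1.06 kb in list 2, at 105890673 to 105891244 and 105890626 to 105891239. Its fold was 7.71 in list 1 (4.85 to 11.7, 20 fragments) and 8.03 in list 2 (5.16 to 12, 22 fragments), so its summits and folds were nearly the same in both. A fold this high was common: 35.0% of protein-coding genes in list 1 and 35.7% in list 2 had one.

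Spry1 and Spry4 had none. The summit nearest to Spry1 lay 99.3 kb away in list 1 (3.33-fold, 9 fragments) and 135 kb away in list 2 (3.66-fold, 14 fragments). That nearest to Spry4, on chromosome 18, lay 68.0 kb away in list 1 and 68.1 kb in list 2, at what was the same site. There the fold was 5.85 in list 1 (3.68 to 8.88, 20 fragments) and 15.7 in list 2 (11.5 to 21.0, 44 fragments). Among protein-coding genes 35.1% had no peak within 50 kb in either list, against 3 of the 10 members.

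The Spred genes had a median fold of 4.77 over 9 peaks in list 1 and of 5.93 over 3 peaks in list 2. Of the 9 list 1 peaks 3 overlapped a list 2 peak (33.3%, exact binomial interval 7.49 to 70.1), against 70.9% of all list 1 peaks. Over the whole of list 1, 42.5% of peaks under 5-fold overlapped, 75.4% of those between 5-fold and 10-fold and 98.8% of those above. Of the 9 Spred peaks 5 were under 5-fold. The Spred peaks that overlapped had folds of 3.62, 4.08 and 11.4. Those that did not had 3.30, 3.88, 4.77, 5.14, 5.88 and 6.98. Why few overlapped was not tested. Spred1 spans 61.2 kb and had 4 peaks in list 1 and 1 in list 2. The shared site lay inside the gene 2.11 kb from the start in list 1 and 2.06 kb in list 2. Its fold was 4.08 in list 1 (2.57 to 6.19, 20 fragments) and 5.93 in list 2 (3.54 to 9.41, 16 fragments). Peaks of list 1 alone lay 11.0 kb (5.88-fold), 31.2 kb (6.98-fold, its highest) and 110 kb (3.30-fold, 8 fragments) from the start. The last lay 48.9 kb past the 3′ end and 18.5 kb from Fam98b.

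Spred2 spans 99.6 kb and had 5 peaks in list 1 and 2 in list 2. Its strongest site lay beyond the 3′ end, by 18.4 kb in list 1 and 18.3 kb in list 2, on chromosome 11 at 20042011 to 20042678 and 20042240 to 20042566. The fold was 11.4 in list 1 (7.80 to 16.1, 30 fragments) and 9.32 in list 2 (6.30 to 13.3, 28 fragments). At 119 kb from the start another shared site was 3.62-fold and 3.29-fold. It lay 19.4 and 19.3 kb past the 3′ end and nearer to Actr2, at 18.9 kb in both. The strongest site and this one thus lay near the middle between Spred2 and Actr2. Peaks of list 1 alone lay 25.0 kb upstream of the start (3.88-fold) and inside the gene at 55.1 kb (5.14-fold) and 62.5 kb (4.77-fold), on 11, 13 and 12 fragments.

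**Figure D2:**
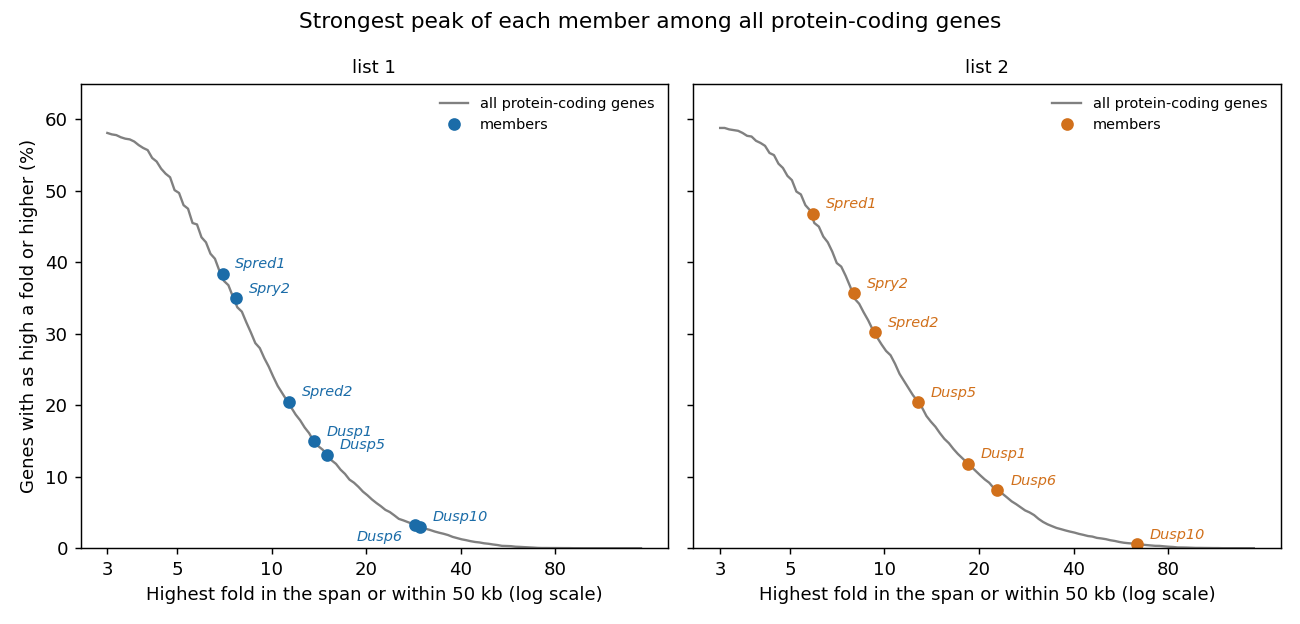
Highest fold over input in the span or within 50 kb (x axis, log scale) against the percent of all 21631 protein-coding genes with as high a fold or higher (y axis), for list 1 (left) and list 2 (right). The grey line is all genes and the dots are the 7 members with a peak. Dusp10 and Dusp6 lie lowest in both panels, with 3.01% and 3.29% of genes as high in list 1 and 0.578% and 8.09% in list 2, and Spred1 lies highest (38.4% and 46.8%).

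The order of the members by their highest fold was Dusp10, Dusp6, Dusp5, Dusp1, Spred2, Spry2 and Spred1 in list 1. In list 2 it was the same but for Dusp1, which stood above Dusp5. Neighbours in this order had overlapping intervals, except for Dusp6 and Dusp5 in list 1 and for Dusp10 and Dusp6 in list 2. Dusp10 and Dusp6, or 2 members in each list, had a peak at least 20-fold over input, against 7.57% of protein-coding genes in list 1 and 10.3% in list 2.

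The lists were then set side by side at the member sites. Of list 1 member peaks 23 of 35, or 65.7%, overlapped a list 2 peak (exact binomial interval 47.8 to 80.9), against 70.9% of all list 1 peaks. Of list 2 member peaks 24 of 28, or 85.7%, overlapped a list 1 peak (67.3 to 96.0), against 71.4% of all. Thus 12 member peaks of list 1 and 4 of list 2 stood alone, where 29.1% and 28.6% of all peaks did. Of those 12, 6 lay at Spred1 and Spred2. Both intervals held the value of all peaks, but they treat peaks as independent, and many of these peaks lay at the same gene.

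At 23 sites a peak of each list was the other's best overlap. Their summits were a median of 28 bp apart and at most 114 bp. The fold was higher in list 1 at 15 of these sites and in list 2 at 8, where over all 15015 such pairs list 1 was higher at 38.3%. On the log2 scale the ratio of list 1 over list 2 had a median of 0.15 at the member sites and -0.15 over all pairs (SD 0.55 across pairs). With the 11 sites in a span or within 10 kb alone the median was -0.21. The ratio ran between -1.10, at the strongest Dusp10 site, and 0.87, at the Dusp10 site 27.3 kb from the start. The fold intervals were apart at 1 of 23 sites, the strongest of Dusp10, against 8.79% of all pairs. With 1 library behind each list, none of these differences could be set against a spread between replicates.

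**Figure D3:**
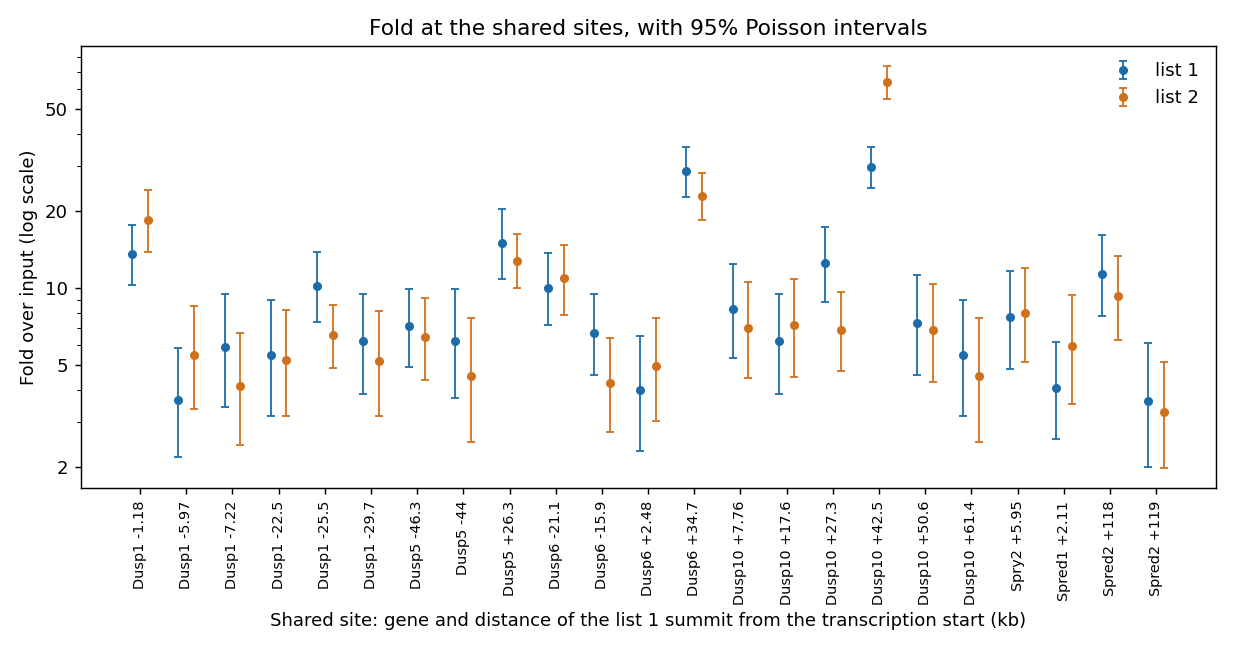
Fold over input (y axis, log scale) at the 23 sites shared by the lists, named by gene and by the distance of the list 1 summit from the transcription start in kb. Points are the authors' folds in list 1 and list 2 and bars are 95% Poisson intervals from the ChIP fragments alone. The bars overlap at every site but the Dusp10 site at 42.5 kb, where list 1 stands at 29.7 and list 2 at 63.7.

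Summits close to the 50 kb limit were weak or moderate. The last inside it were a Dusp1 peak of list 2 at 47.7 kb (3.49-fold), a Spred1 peak of list 1 at 48.9 kb (3.30-fold) and a Dusp5 peak of list 1 at 49.3 kb (8.47-fold). The first outside it were a Dusp1 peak of list 2 at 52.2 kb (6.63-fold) and the Dusp4 peak of list 1 at 53.5 kb (7.71-fold).

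The rest of the pathway was read from 6 lists with 59 genes, and each had an entry among the protein-coding genes. A peak in the span or within 50 kb was found for 52 of 59 genes in list 1 and 53 in list 2 (88.1% and 89.8%). The share was 70.0% in each list for the feedback genes, and 58.2% and 59.0% for all protein-coding genes. It rises with gene span, from 38.2% and 39.2% of protein-coding genes under 5 kb to 67.7% and 68.5% of those over 20 kb. The 59 genes were not matched to the members by span.

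The other MAP kinase phosphatases had a peak in 6 of 6 cases in each list. Dusp14 stood highest (43.8-fold in list 1 and 49.2-fold in list 2), at a summit 11.3 kb from its end and inside Tada2a. Dusp16, which acts on JNK and p38, had 16.5-fold and 22.0-fold. Dusp7, a close relative of Dusp6, had 20.9-fold and 12.6-fold with the summit 2.45 kb from its end in both, and Dusp9 had 8.45-fold and 16.9-fold. The remaining Sprouty gene Spry3 had no peak, and Spred3 had a weak one in list 2 alone (4.54-fold, 12 fragments, inside Psmd8).

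Other negative regulators had a peak in 9 of 11 cases in list 1 and 10 of 11 in list 2. Lrig1, which encodes a transmembrane protein that restrains the EGF receptor, stood highest (52.4-fold in list 1 and 64.9-fold in list 2), 42.8 kb from its end. Il17rd, also known as Sef, an inhibitor of FGF signalling, had 22.4-fold and 32.5-fold inside its span. Pea15a, whose product holds ERK in the cytoplasm, had 38.6-fold and 46.4-fold at a summit inside Atp1a4. Rgs4 had 20.5-fold and 39.1-fold at a summit inside Rgs5. Rasal1 had none.

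Of the genes of the cascade itself 19 of 21 had a peak in list 1 and 18 in list 2. First by −log10 q in either list were Frs2, the FGF receptor adaptor, Ksr1, the scaffold of the cascade, the adaptor gene Shc1, and Gab1. Frs2 had 37.1-fold in list 1, 3.01 kb from its end, and 25.1-fold in list 2 at another site, 46.4 kb from its end and inside Best3. Ksr1 had 25.3-fold and 33.8-fold, Shc1 21.0-fold and 10.7-fold, and Gab1 13.6-fold and 18.1-fold. Map2k2, which encodes MEK2, had none. ETS factors, through which ERK acts on genes, had a peak in 9 of 10 cases in each list, with Ets1 (33.4-fold and 26.8-fold), Elk3 (19.2-fold and 23.5-fold) and Ets2 (17.5-fold and 11.3-fold) first by −log10 q. Genes of the p38 and JNK cascades had a peak in 9 of 9 cases in each list. Map2k3 had 10.4-fold in each list. Mapk9 had 14.0-fold and 8.26-fold inside Rasgef1c, Mapk8 7.06-fold and 10.5-fold inside Arhgap22, Map2k7 9.12-fold and 4.21-fold, and Map3k5 7.71-fold and 9.77-fold.

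**Figure D4:**
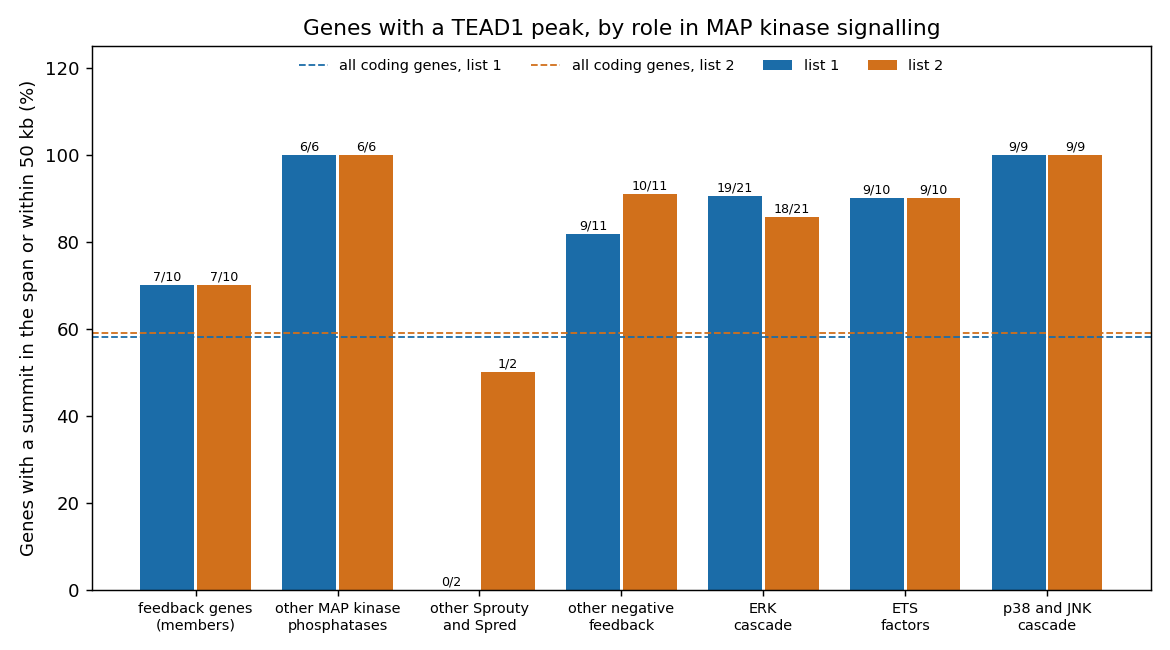
Percent of genes with a summit in the span or within 50 kb (y axis) for the 10 feedback genes and 6 groups of related genes (x axis), with the number of genes above each bar. Dashed lines are the percent over all protein-coding genes, 58.2% in list 1 and 59.0% in list 2. The feedback genes stand at 70.0% in both lists, below every group but the other Sprouty and Spred genes.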

How the data were processed

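Per the submitters' processing notes, the authors used Trimmomatic 0.33 for trimming, Bowtie 1.1.2 for alignment and MACS2 for peak calling. The sources used here give no MACS2 settings. The 2 deposited lists have no header and each holds peaks of 1 calling against input. The deposited fold is the ratio of summit pileup to local background, each raised by 1. Each peak also has the authors' −log10 p and −log10 q, and a deposited score that is 10 times the −log10 q without its decimals for all but 2 peaks. These values rank and filter peaks within a list.

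The notes name mm39. Summits within 1 kb of an end of a coding span of the GRCm38.p6 RefSeq table numbered 1129 and 1072, against medians of 899 and 883.5 after 50 shifts of 20 to 118 kb, so coordinates were read as GRCm38, counted from 1.

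ChIP fragments and background at each summit were solved from fold and p (Python 3.11.15, scipy 1.17.1), checked on simulated data. All came out whole within 0.02. The lowest number was 8, and the genome-wide background 1.72 in list 1 and 1.87 in list 2. Poisson intervals cover counting error only. Genes were protein-coding ones on chromosomes 1 to 19 and X. Transcription starts came from the promoter table. The members, gene lists and comparisons were chosen with earlier results of these data known. Named were all members with their strongest, at least 10-fold and nearest peaks, and in each related group the 3 genes of highest −log10 q in either list and those without a peak. No test was made, because neither list had a replicate or was tied by its label to a condition. Sequence at the summits was not analysed here.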

Additional observations from a re-analysis of the deposited data

How the results depend on the processing

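Of 45 values recomputed under another setting, 34 stayed within 1.5 times the count or within a 95% interval. For a count out of 10 members this limit is wide. Against 7 members with a peak, 10 (list 1 within 100 kb) and 5 (list 2 within 10 kb) both passed it. For shared percents this was the exact binomial interval given above. For medians it came from the ranked values. It was 5.51 to 7.71 for the fold in list 1, 4.88 to 7.02 in list 2, and -0.12 to 0.29 for the log2 ratio. Peaks at the members numbered 17 in list 1 and 12 in list 2 within 10 kb, 57 and 51 within 100 kb, and 9 and 5 among the 5000 strongest peaks of each list. With those 5000, 4 members had a peak in list 2 (5 in list 1), and the median fold of member peaks was 12.54 and 18.49, as the setting's own construction gives. The log2 ratio at shared sites (list 1 over list 2) had a median of -0.21 within 10 kb, and of 0.30 relative to the median over all pairs. The cause of the change of sign was not tested. Members with a peak were 7 and 5 within 10 kb, where 33.7% and 33.8% of protein-coding genes had one. They were 10 and 8 within 100 kb, and 7 in each list when the member had to be the nearest coding gene. The share of all protein-coding genes was not computed for settings other than 10 kb and 50 kb. No paired analysis was possible because the lists are tied to no condition and each rests on 1 ChIP library. Weak peaks rest on few fragments (8 and 9 at the lowest member peaks), which limits what a peak found in 1 list alone can show.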
